A study of Drosophila melanogaster with 6 samples.

Results

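The 3 control samples of the series were Drosophila S2 cells that had received double-stranded RNA (dsRNA) against GFP and were incubated for 5 days, and they are described here as a baseline transcriptome. They were chosen by title, and they make up 3 of the 6 samples. The other 3 samples received spotted-dick dsRNA and were left out of every value below. Total RNA was extracted with Trizol and the file headers name the chip, used once per sample, as the Affymetrix Drosophila_2 array. S2 cells are a long-established embryonic line with blood-cell features. GFP is a jellyfish protein with no fly counterpart, so its dsRNA engages the RNA interference machinery without matching a fly mRNA. No sample without dsRNA was analysed here, so the effects of dsRNA itself are part of this baseline. The labels do not say whether the replicates were separate cultures, and the spread between them may therefore be technical.

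An array of this kind reports 1 signal per probe set, a group of short probes that bind 1 transcript. The signal depends on the amount of RNA and also on how well the probes bind. A higher rank is therefore a brighter signal and not a measured number of transcripts. Drosophila blood cells fall into plasmatocytes, which engulf debris and secrete basement membrane, crystal cells, which carry prophenoloxidases for melanization, and lamellocytes, which encapsulate parasites. Which of these programmes a line with blood-cell features shows, beside the ribosome, proteasome and mitochondrial genes that dividing cells need, is what a baseline can describe.

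Of 18769 probe sets for fly sequences, 13646 were paired with 1 gene, and these stood for 11981 genes. Each gene was given the mean of log2(signal + 16) over the 3 arrays, read from its probe set with the highest mean. Background was set by 100 control probe sets for sequences foreign to the fly. A gene was called at background when its mean was at or under 4.89, the 95th percentile of these controls, which corresponds to a signal of 13.6. By construction 95 of the 100 controls lay at or under this level and 5 above it. Of the foreign controls 1 was bright, with signals of 8990.9, 8300.7 and 7064.2, and without it the threshold was 4.86 and 4798 genes were at or under it. The 3′ probe set of the Cre hybridisation control was as bright, at 7981.5, 7155.5 and 5869.6. Whether the bright foreign control reads the same sequence was not tested. A gene was called bright at a mean of 10 or more and moderate in between.

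By these levels 4914 genes (41.0%) were at background, 6289 (52.5%) were moderate and 778 (6.49%) were bright. So 59.0% of all genes were above background, and each list count below is to be read beside these shares. The median over all 11981 genes was 5.51, and over the genes above background it was 7.78. Genes were crowded around the lower threshold, with 1670 of them within 0.25 of it on the log2 scale, against 350 within 0.25 of the upper one. On each array a gene could also be set against the 95th percentile of that array's own foreign controls. All 778 bright genes passed this on all 3 arrays, as did 5450 of the 6289 moderate genes. Among the moderate genes 62 passed on no array, 347 on 1 and 430 on 2. A moderate call close to the threshold is thus weaker than 1 well above it. Just above the lower threshold lay CG6329, with signals of 18.9, 12.6 and 10.2, and just below it CG13409, with 24.2, 11.2 and 7.8. Around the upper threshold CoRest (1255.1, 1063.6 and 776.8) was bright and CG5888 (1112.1, 1095.9 and 839.6) was moderate. These pairs overlapped on the arrays and are split by the thresholds alone.

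**Figure D1:**
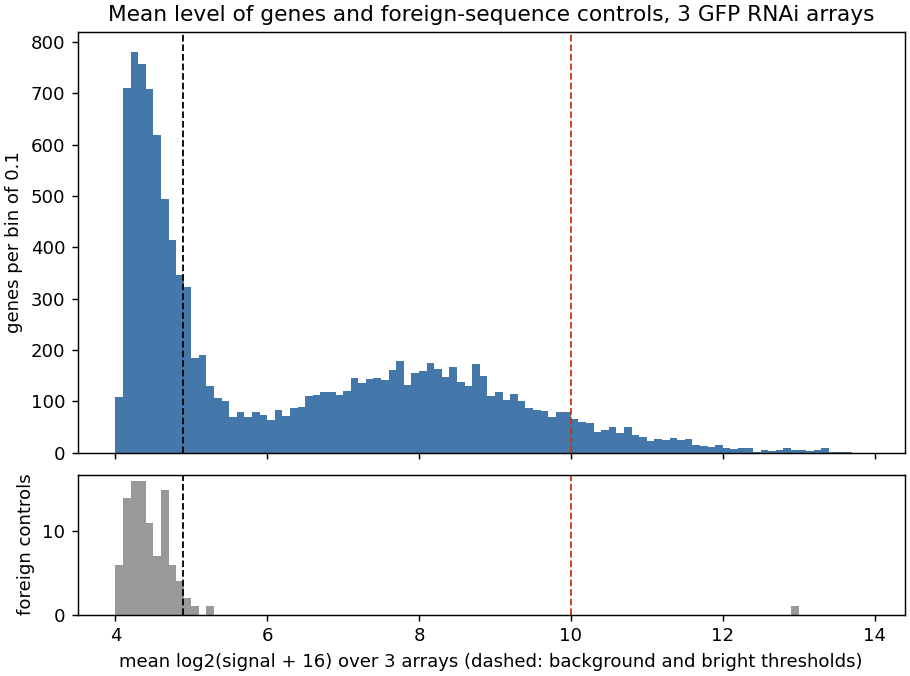
Histogram of the mean log2(signal + 16) over the 3 GFP RNAi arrays, with genes in the upper panel (11981) and foreign-sequence controls in the lower panel (100). Genes form a narrow peak that overlaps the controls and a broad hump centred near 8, and the dashed lines mark the background threshold (4.89) and the bright threshold (10).

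The 3 arrays ranked genes alike but differed in brightness. The trimmed mean signal over fly probe sets was 189.6, 160.1 and 125.8 in replicates 1, 2 and 3, and the median log2 level of genes above background was 8.06, 7.83 and 7.47. Replicate 1 held the highest value for 83.7% of the 7067 genes above background, and replicate 3 the lowest for 88.4%. Replicates 1 and 2 were processed on fluidics station 1 and replicate 3 on station 2, per the file headers, so station and replicate cannot be told apart. Across genes above background the Pearson correlation was 0.992 between replicates 1 and 2, 0.989 between 1 and 3 and 0.990 between 2 and 3. These are given across genes, which are not independent replicates. After each array was centred on its median, the median SD of a gene over the arrays fell with brightness, from 0.26 for means between the threshold and 6 to 0.12 between 6 and 8, 0.076 between 8 and 10 and 0.063 for bright genes. As deposited, the median SD in the same order was 0.25, 0.29, 0.30 and 0.28, without such a fall. For genes at background centring raised the median SD from 0.22 to 0.33. The 3′ to 5′ signal ratio of the fly control probe sets, a measure of how complete the labelled RNA was, came to 2.60, 2.82 and 2.82 for actin, 2.97, 3.35 and 3.39 for GAPDH and 8.0, 8.14 and 9.32 for eIF-4a.

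**Figure D2:**
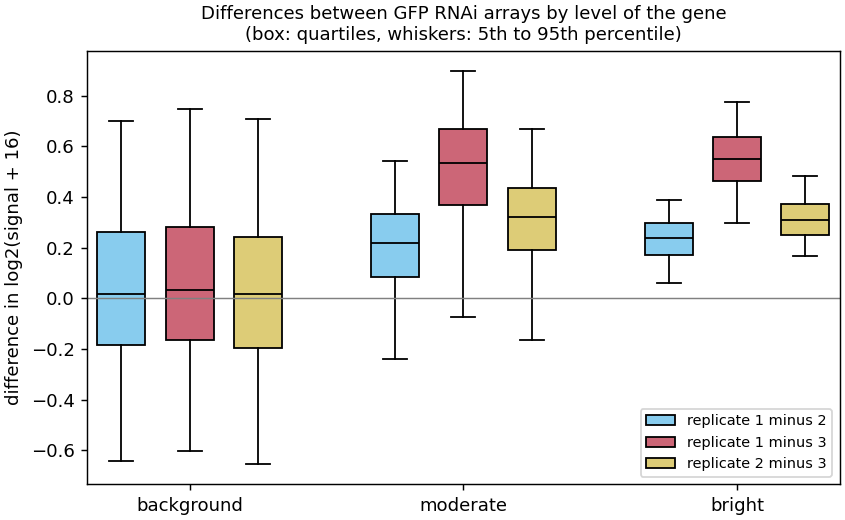
Difference in log2(signal + 16) between pairs of arrays (y axis) for background, moderate and bright genes (x axis), with boxes for the quartiles and whiskers for the 5th to 95th percentiles. Bright genes differ by a nearly constant amount that follows array brightness (replicate 1 highest, 3 lowest), while genes at background scatter around 0.

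Cytoplasmic ribosomal protein genes, which encode the structural proteins of the ribosome, filled the top of the ranking. They made up 20 of the 25 brightest genes and 28 of the 50 brightest. RpLP1, a protein of the ribosomal stalk, had signals of 13054.8, 12090.2 and 10601.5, and RpL41, the shortest ribosomal protein, had 12276.6, 11954.9 and 10012.4. RpS27A, made as a fusion with ubiquitin, had 12482.3, 11096.6 and 9588.5. The stalk genes RpLP2 (log2 13.39 ± 0.13, SD, n = 3) and RpLP0 (13.36 ± 0.17) followed closely. Since each gene is read by its own probe set, the order of such close neighbours carries little weight. Of 34 measured ribosomal protein genes 29 were bright, 4 moderate and 1 at background, with a median of 13.17 against 5.51 over all genes. The 4 moderate ones, RpS19b, RpS10a, RpS5b and RpS28a, and the 1 at background, RpL10Aa (signals of 6.4, 4.1 and 1.1), are paralogues of other ribosomal protein genes. The 34 measured ribosomal protein genes contributed 7.71% ± 0.68 (SD, n = 3) of the summed signal of the measured genes. Probe sets paired with no gene or with several are not in this sum. The rest of the 86 listed genes had no probe set paired with them alone and are not described.

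Outside the ribosome, 5 genes stood among the 25 brightest. MtnA, a metallothionein that binds copper and other metals, was the brightest of the measured genes. Its signals were 13661.4, 12923.6 and 11510.3, at a log2 level of 13.63 ± 0.13 (SD, n = 3). A probe set paired with no gene had a slightly higher mean, at log2 13.64. The gene CG5953 ranked 3, with 12513.5, 11979.8 and 10345.9. Fer1HCH, the heavy chain of the iron store ferritin, had 11256.2, 10485.3 and 9580.1. Each of these was bright on every array, and each lay more than 3 log2 units over the bright threshold. Hsc70-4, a constitutive chaperone, had signals of 11292.2, 10141.3 and 8636.0, and tsr, the actin-severing protein cofilin, had 9577.2, 8759.8 and 7999.3. The probe sets of CG5953, Fer1HCH and Hsc70-4 carry the suffix _s_at, which marks probes that match more than 1 transcript. Such probe sets stood for 4.4% of genes at background, 11.7% of moderate genes and 24.7% of bright genes, and whether another transcript adds to these signals was not tested. Also, 16 of the 25 brightest genes overlap another gene in the RefSeq annotation, Fer1HCH overlapping its neighbour Fer2LCH. The 25 brightest genes together gave 7.35% ± 0.65 of the summed signal of the measured genes, and the 778 bright genes gave 55.2% ± 0.91 (SD, n = 3).

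In each isoform family only a few of the measured members, or none, were bright. Among 4 measured metallothioneins MtnA was bright while MtnC (13.8, 10.5 and 4.3), MtnB (4.5, 4.8 and 3.8) and MtnD (2.5, 2.0 and 1.5) were at background. These groups of values are far apart in every array. Of 9 measured tubulin genes, which encode the subunits of microtubules, betaTub60D (4859.9, 4169.3 and 3320.8) and betaTub56D (4702.2, 3924.2 and 3463.6) were bright. The betaTub97EF gene was moderate (420.0, 277.2 and 224.5). A level far lower was seen for gammaTub37C, a maternal gamma-tubulin, at 37.5, 37.0 and 33.7. The alpha-tubulins alphaTub84D (log2 4.99 ± 0.26) and alphaTub67C (4.97 ± 0.15) were moderate by a small margin and passed their own array's background on 1 of 3 arrays. The other 3 measured members, betaTub85D, the testis beta-tubulin, betaTub65B and alphaTub85E, were at background. The tubulin list held 11 genes. The gene alphaTub84B was not among the 9 measured, so how much alpha-tubulin RNA the cells hold is not described. Of the actins measured here, Act79B, a muscle isoform, was moderate at 48.1, 45.8 and 26.2, and Act87E and Act88F were at background. Act5C, Act42A and Act57B had no probe set of their own in the gene table, but the fly actin control probe set for the 3′ end read 6237.3, 4910.4 and 4185.3.

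Iron handling genes were nearly all above background. Of 9 measured, Fer1HCH was bright, 7 were moderate and Fer3HCH, the mitochondrial ferritin, was at background (5.3, 34.3 and 4.0, a scatter set by replicate 2). The transferrin Tsf1 had signals of 623.4, 630.7 and 503.7. The iron regulatory proteins Irp-1B (503.9, 447.6 and 332.3) and Irp-1A (410.4, 333.3 and 221.0) and the metal transporter Mvl (272.2, 234.0 and 187.3) were moderate. Ferritin's light chain gene Fer2LCH was also moderate, at 253.2, 194.4 and 182.4. The remaining transferrins were moderate too, Tsf2 at 7.47 ± 0.27 and Tsf3 at 6.75 ± 0.14 on the log2 scale.

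Protein synthesis beyond the ribosome was bright as well. Of 33 translation factor genes 23 were bright, 6 moderate and 4 at background, with a median of 11.31. The brightest were eEF5, the hypusinated elongation factor, at 7966.1, 7118.3 and 5871.0, eEF1gamma at log2 12.76 ± 0.28, the RNA helicase eIF4A at 12.64 ± 0.19 and the start-site selection factor eIF1 at 12.55 ± 0.30. The cap-binding factor eIF4E1 was bright at 2645.7, 2195.0 and 1869.1. Its paralogues eIF4E3, eIF4E4, eIF4E5 and eIF4E7 were the 4 factors at background, for example eIF4E7 at 2.0, 2.0 and 1.3. So 1 of the 6 measured eIF4E genes was bright, and eIF4E6 was moderate at log2 5.12 ± 0.20. The aminoacyl-tRNA synthetases, which load tRNAs with amino acids, were all above background in 30 of 30 cases. Their 14 mitochondrial members had a median of 6.96 and none was bright. The other 16 had a median of 9.73, and AsnRS (1846.6, 1599.3 and 1156.9), ThrRS, IleRS and GlyRS were among the 6 that were bright.

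The proteasome, which degrades ubiquitinated proteins, showed a split by paralogue. Of 40 measured genes 25 were bright, 3 moderate and 12 at background. All 12 at background carried the suffix R or T, which in flies marks paralogues of the core subunits that are mostly known from the testis. Of the 14 genes with such a suffix none was bright, and of the 26 without it 25 were bright and Rpt2, an ATPase of the regulatory particle, was just below at 9.93. Prosbeta4, a core particle subunit, had signals of 3394.8, 2711.9 and 2246.8 and Prosalpha5 had 2873.6, 2395.8 and 1917.2. The catalytic subunit Prosbeta5 had 2824.0, 2243.3 and 1860.2, while its paralogues Prosbeta5R1 (1.3, 1.0 and 1.0) and Prosbeta5R2 (1.3, 1.1 and 0.9) were at the bottom of the scale on every array. Prosbeta6 was bright at log2 11.16 ± 0.30.

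Oxidative phosphorylation genes, which encode the respiratory chain and ATP synthase, followed the same pattern. Of 78 measured 42 were bright, 19 moderate and 17 at background, with a median of 10.19. In this family 20 symbols end in L, or in L and a digit, the mark of a paralogue, and 16 of these were at background and none was bright. Of the other 58, 42 were bright, 15 moderate and 1 at background. The brightest were the ATP synthase subunits ATPsyngamma (6499.6, 5544.8 and 4481.5), blw (5800.9, 5210.0 and 3999.9) and ATPsynF and the respiratory chain subunit ND-MLRQ (6112.4, 5231.7 and 3833.3). The 1 exception was ND-B8, a complex I subunit, at 0.6, 0.5 and 0.7. Whether its transcript is missing or its probe set fails to read it was not tested. ND-24L, a paralogue, was as low at 0.9, 1.2 and 1.8. Mitochondrial ribosomal protein genes formed a tighter group, since all 71 were above background and 67 of them moderate, from 7.68 to 10.21. The 4 bright ones were mRpL28 (1381.5, 1197.5 and 966.9), mRpL49, mRpL12 and mRpL33.

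**Figure D3:**
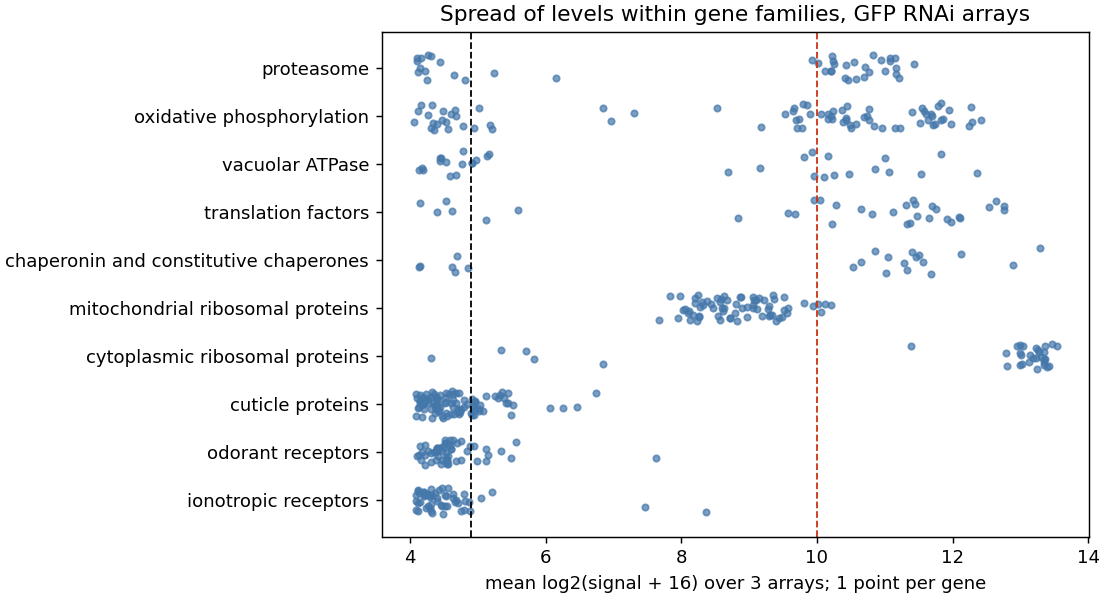
Mean log2(signal + 16) over the 3 GFP RNAi arrays (x axis) of each gene (1 point) in 10 families (y axis), with dashed lines at the background (4.89) and bright (10) thresholds. Proteasome genes split into a bright and a background group, with 3 of 40 moderate. Oxidative phosphorylation and vacuolar ATPase genes spread over all 3 levels, with 19 of 78 and 10 of 31 moderate. Mitochondrial ribosomal protein genes stay within 7.68 to 10.21, and the receptor and cuticle families lie mostly at background.

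Chaperones had no moderate member: of 21 constitutive chaperone and chaperonin genes 15 were bright and 6 at background. Hsc70-3, the endoplasmic reticulum Hsp70 also known as BiP, had signals of 9553.2, 7239.2 and 6221.5, and Gp93, its Hsp90 counterpart, had 4773.2, 4711.1 and 3884.3. The chaperonin subunit CCT2, which helps fold actin and tubulin, had 4237.6, 3246.9 and 2569.6. At background were Hsp60B, Hsp60C, Hsp60D, Hsc70-1, Hsc70-2 (1.2, 1.8 and 1.6) and Pdi, a protein disulphide isomerase (13.4, 8.5 and 7.9). Of the heat-inducible proteins the small ones Hsp27 (487.2, 434.7 and 294.5) and Hsp26 (301.8, 260.5 and 136.8) and Hsp68 (114.0, 112.9 and 61.2) were moderate, and the other 11 listed had no probe set of their own. Glycolysis had 6 bright, 3 moderate and 4 background genes of 13. Enolase, Eno, had 4866.6, 4135.2 and 3734.2, followed by Gapdh1 (log2 11.64 ± 0.24), the triose phosphate isomerase Tpi (11.47 ± 0.32) and Pgk (10.56 ± 0.31). The hexokinase paralogues Hex-C, Hex-t1 and Hex-t2 and the mutase paralogue Pglym87 were at background, while Hex-A was moderate. The vacuolar ATPase, the proton pump of lysosomes, had 10 bright, 10 moderate and 11 background genes of 31. Its share above background, 64.5%, was near the 59.0% over all genes. Its bright share was 32.3%, against 6.49% over all genes. Its brightest subunit, Vha16-1, had 5794.0, 5365.4 and 4624.9, followed by Vha26 (log2 11.83 ± 0.25), VhaPPA1-1 (11.54 ± 0.27) and VhaM9.7-b (11.06 ± 0.31), against 4.12 ± 0.05 for Vha14-2 and 4.17 ± 0.10 for Vha36-2.

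Plasmatocyte markers were above background in 11 of 13 cases. Of the 13, 4 were bright, 7 moderate and 2 at background, and their median was 8.83 against 5.51 over all genes. The collagen IV genes vkg (6611.3, 5899.1 and 5169.0) and Col4a1 (5379.7, 4828.0 and 4184.8) and the collagen-binding SPARC (5813.4, 5284.2 and 4548.3) were the brightest. These 3 encode basement membrane, which fat body also makes. The GATA factor srp, which directs blood cell fate, had signals of 1612.5, 1360.4 and 1053.2. The scavenger receptor crq (997.9, 798.3 and 560.0), the clotting protein Hml (609.2, 603.1 and 523.1) and the engulfment receptor drpr (543.2, 466.1 and 336.5) were moderate. So was the matrix protein Ppn at 453.1, 443.9 and 310.4. The phagocytic receptor eater was much lower, at 83.4, 71.1 and 54.7, and He, known as hemese, at 42.6, 45.3 and 23.2. Pxn, the matrix peroxidase, was moderate by a small margin at 30.2, 11.5 and 16.8, passing its own array's background on 2 of 3 arrays. At background were the phagocytic receptors NimC1 (11.7, 9.8 and 1.0) and Sr-CI (3.9, 10.3 and 2.2).

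Crystal cell markers were at or near background. The transcription factor lz, which specifies crystal cells, had 13.9, 13.1 and 4.9, and peb had 14.7, 4.1 and 12.5. The prophenoloxidase PPO1 had 4.9, 4.4 and 3.3. Its relative PPO2 was called moderate at 37.1, 11.8 and 2.5, a call that rested on replicate 1. The zinc-finger gene klu was moderate at 53.9, 44.8 and 28.0 and passed on all 3 arrays. Of the 7 lamellocyte markers betaTub60D (4859.9, 4169.3 and 3320.8) and the filamin cher (2092.3, 1782.8 and 1478.1) were bright. The matrix gene mspo (488.0, 457.0 and 328.4) and the lamellocyte prophenoloxidase PPO3 (244.7, 205.9 and 162.0) were moderate. The other 3 were near background, with ItgaPS4 at 11.9, 25.5 and 9.7, Drip at 15.4, 16 and 12 and the surface antigen atilla at 3.9, 13.7 and 2.5. Both betaTub60D and cher are also used outside blood, betaTub60D in muscle and cher as a general actin crosslinker.

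**Figure D4:**
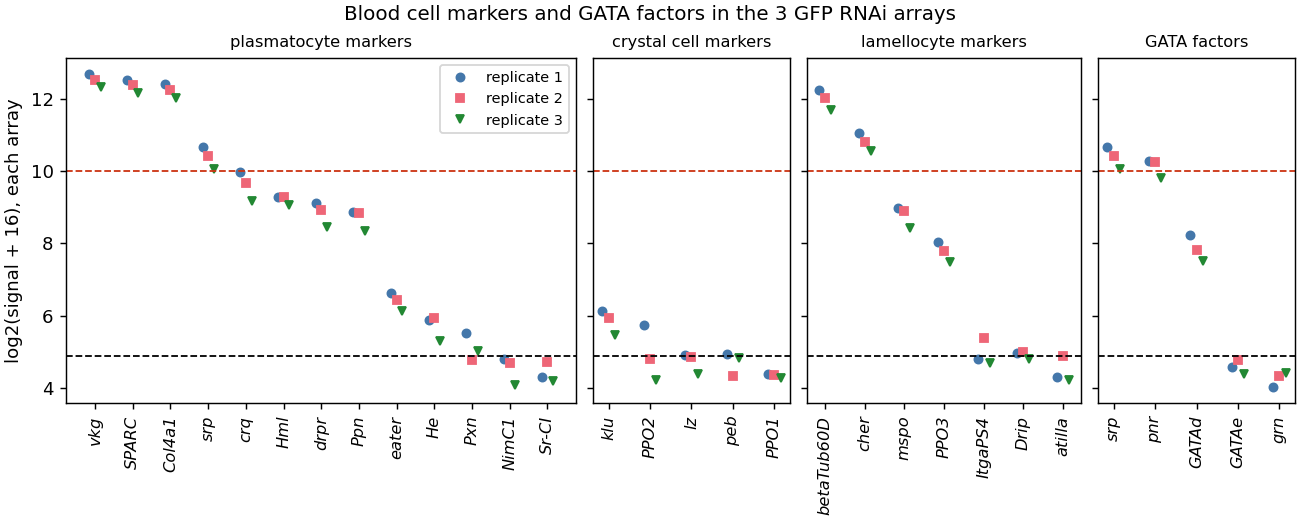
The log2(signal + 16) of each blood cell marker and GATA factor (x axis) in each of the 3 GFP RNAi arrays (points), with dashed lines at the background (4.89) and bright (10) thresholds. The matrix genes vkg, SPARC and Col4a1 and betaTub60D lie near 12 on all arrays, and lz, peb, PPO1, NimC1, Sr-CI and atilla lie near the background line or under it.

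Transcription factors of the blood lineage beyond srp were seen as well. Its cofactor ush had signals of 1283.7, 1050.8 and 857.3. The JAK/STAT transcription factor Stat92E (1162.6, 850.4 and 700.5) and receptor dome (585.9, 537.7 and 402.6) and the thioester protein Tep4 (983.7, 934.5 and 694.5) were moderate, while the glial and plasmatocyte factors gcm and gcm2 were at background. Among the 5 GATA factors pnr was bright beside srp, at 1237.4, 1213.7 and 875.2, and GATAd was moderate at 284.9, 211.4 and 167.4. The gut factor GATAe (7.8, 11.5 and 5.0) and grn (0.2, 4.2 and 5.4) were at background. The srp and pnr signals overlapped in range.

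Of 13 basement membrane genes, which build the sheet of secreted matrix under cells, 6 were bright, 5 moderate and 2 at background, with a median of 8.69. The bright ones were vkg, Col4a1, SPARC and the laminin chains LanB2 (5528.3, 5252.8 and 4594.6), LanA (5636.4, 4586.0 and 3765.9) and LanB1 (3648.7, 3424.3 and 2856.6). All 3 subunits of the laminin trimer were thus bright, while the alternative alpha chain wb was moderate at 99.7, 79.8 and 49.7. The perlecan gene trol was low at 29.3, 34.2 and 16.6, and nidogen, Ndg, was at background, as was the protease Mmp2. Imaginal disc growth factors, chitinase-like secreted proteins, had 4 bright genes of 6. These were Idgf3 (8472.1, 7377.2 and 6347.4), Idgf6 (6316.9, 5821.6 and 5405.8), Idgf2 (4891.5, 4113.6 and 3476.7) and Idgf1 (3777.9, 3195.1 and 2622.9). Idgf3 has 2 probe sets and was read from one with the suffix _s_at. With only probe sets without a suffix it was not bright. Idgf4 was moderate at 146.9, 103.0 and 55.0 and Idgf5 was at background.

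Of 14 integrin and adhesion genes 5 were bright and 9 moderate. The beta chain mys had signals of 3738.4, 3014.9 and 2229.6. The linkers Vinc (2119.8, 1720.4 and 1304.3), stck (1849.1, 1433.8 and 1329.3), Pax (1224.5, 1362.3 and 1081.3) and the talin gene rhea (1488.5, 1212.8 and 841.8) were also bright. Other cytoplasmic adhesion genes were moderate, namely parvin (log2 9.30), Ilk (8.99) and Fak (6.35), and so was the other beta chain, Itgbn, at 135.2, 99.7 and 71.4. Of the 5 alpha chains none exceeded a signal of 77.1, the value of ItgaPS5 in replicate 1. The alpha chain scb had 58.8, 48.2 and 44.1, and if (10.1, 21.9 and 15), ItgaPS4 and mew (23.0, 16.6 and 5.8) passed their own array's background on 1 of 3 arrays. Probe binding differs between these genes, and the mys probe set carries the suffix _x_at, so the signals do not give the ratio of chains. Of 24 scavenger and phagocytic receptor genes 15 were at background, including the scavenger receptors Sr-CIII and Sr-CIV and NimB1 (1.9, 2.1 and 1.9). Dscam1, an immunoglobulin receptor with very many splice forms, was the 1 bright gene, at 1728.1, 1479.7 and 1140.9, and the CD36-family receptor pes was moderate at 1089.5, 940.8 and 712.9.

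Immune signalling components were largely above background without a stimulus being named in the labels. Of 45 genes on all immunity lists 82.2% were above background and 13.3% bright, against 59.0% and 6.49% over all genes. All 12 Imd pathway genes measured were above background. The NF-kappaB factor Rel had signals of 1335.2, 1134.5 and 876.6 and the ubiquitin-conjugating enzyme ben had 1946.2, 1522.6 and 1143.5. The IKK subunit key (log2 9.72 ± 0.39) and the inhibitor pirk (9.49 ± 0.26) were moderate. In the Toll pathway 11 of 14 were above background, with the ligand spz bright at 2792.1, 2352.7 and 1961.2 and the NF-kappaB factor dl moderate at 1108.0, 970.4 and 782.3. The inhibitor cact was moderate too, at 654.0, 597.9 and 394.0, as was the glucan sensor GNBP3. The proteases and serpin of the upstream cascade, SPE, psh (4.7, 1.3 and 2.4) and nec (4.4, 2.6 and 3.2), were at background.

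Antimicrobial peptide genes spanned the whole range. Of 13 measured 3 were bright, 6 moderate and 4 at background. The share above background was 69.2%, against 59.0% over all genes. The bright ones were edin (2832.0, 2387.0 and 2007.4), the antifungal Drs (1261.8, 1231.6 and 913.1) and the diptericin DptB (1418.8, 1165.2 and 783.7). CecB, a cecropin, was moderate at 363.6, 275.8 and 185.9, and Def, a defensin, was moderate by a small margin at 36.4, 13 and 10.4, passing its own array's background on 1 array. The drosomycin-like genes Drsl1, Drsl2, Drsl3 and Drsl6 were at background. Peptidoglycan recognition proteins were moderate in 6 of 7 cases, led by PGRP-LF (473.1, 448.0 and 334.7) and PGRP-LA (420.4, 371.2 and 312.3).

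Of 101 genes on the signalling lists 5 were bright, 72 moderate and 24 at background. Their bright share, 4.95%, was under the 6.49% over all genes. Their share above background was 76.2%, against 59.0% over all genes. Both ligands and receptors were found on either side of the background threshold. In the EGF receptor pathway 11 of 12 measured genes (21 listed) were above background and Egfr itself was not, at 2.1, 3.6 and 6.4. Its ligand spi was bright at 3077.5, 2686.6 and 2155.6, the transcriptional repressor aop was moderate at 1035.4, 889.5 and 752.0, and the secreted inhibitor aos at 835.5, 802.3 and 591.3. In JNK signalling 12 of 13 were above background, with the Fos gene kay (2312.7, 1813.6 and 1259.7) and the TNF ligand egr (1991.1, 1805.9 and 1407.2) bright. The genes bsk (log2 9.94 ± 0.30) and msn (9.82 ± 0.32) were moderate. Of the receptors, wgn was moderate (9.42 ± 0.36) and grnd was at background. In JAK/STAT signalling the ligands upd1 (1.6, 2.7 and 2.9) and upd2 (5.8, 3.1 and 6.6) were at background. In the Hedgehog pathway the ligand hh and the factor ci were at background, while the kinesin-like cos (460.6, 380.2 and 328.0) and Su(fu) were moderate. The insulin and TOR pathway had S6k bright at 1437.2, 1118.6 and 820.5, Pdk1 (log2 9.22 ± 0.37) and Akt (8.67 ± 0.41) moderate, and the insulin-like peptides Ilp7 and Ilp8 at background. Among BMP and activin genes 12 of 16 were above background, with the ligand gbb at 880.0, 787.0 and 656.2, the receptors put (log2 9.20) and sax (9.16), and the ligands scw and Actbeta at background. All 7 measured Notch pathway genes were moderate, led by Psn of gamma-secretase at 1056.1, 934.8 and 759.6. Notch itself was not among them and is not described. Only 3 Wingless pathway genes were measured, Axn (log2 8.03 ± 0.35), por (6.91 ± 0.39) and Wnt6 at background.

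Ecdysone is the steroid hormone that times fly development. Of 18 genes tied to it 8 were above background. ImpL2, which encodes a secreted antagonist of insulin-like peptides, was bright at 7053.2, 6720.1 and 5195.3. The receptor partner usp was moderate at 238.9, 182.6 and 161.7, ftz-f1 at 228.6, 139.5 and 154.4 and MsrA at log2 7.46 ± 0.28, while the response factor Hr3 and the hormone-making enzyme gene sad were at background. Among Hox and early patterning genes 16 of 20 were at background, such as Scr (3.8, 1.6 and 3.5) and kni (0.9, 0.8 and 2.3). The exception was hry, the hairy gene, a repressor used in segmentation and later tissues, which was bright at 4595.1, 4069.9 and 3050.8. The other members above background were near the threshold signal of 13.6, with gt at 28.4, 15 and 23, sna at 18.9, 16.6 and 8.3 and cad at 21.7, 12.1 and 8.7. Of these, gt passed its own array's background on 2 arrays, cad on 1 and sna on 0.

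The machinery that S2 cells use for dosage compensation, which raises transcription from the male X chromosome, was detected throughout. All 5 measured genes were moderate and passed on all 3 arrays. The acetyltransferase mof had signals of 424.0, 304.8 and 233.9, and msl-2, the subunit made in males, had 291.7, 241.6 and 198.3. The scaffold msl-1 had 191.1, 169.0 and 114.6, msl-3 had 157.9, 154.9 and 95.2 and the helicase mle had 195.5, 132.7 and 84.9. All 9 sex determination genes were moderate: tra2 at 518.9, 455.5 and 322.6, fl(2)d at 383.9, 345.0 and 270.8 and Sxl at 211.1, 153.4 and 124.0. The others were vir (log2 7.12 ± 0.18), ix (6.84 ± 0.40), fru (6.61 ± 0.22), tra (6.46 ± 0.26), dsx (5.30 ± 0.33) and her (5.12 ± 0.28). Of the 9 genes, dsx and her passed their own array's background on 2 arrays and the rest on all 3. Many of these genes are transcribed in both sexes and spliced differently, and a probe set level does not give the splice form.

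Chromatin and small RNA genes were moderate almost without exception. Of 19 Polycomb and Trithorax genes Caf1-55, a histone-binding protein, was bright at 1679.3, 1361.7 and 1097.7 and the other 18 were moderate, among them the remodelling subunits brm (log2 9.92 ± 0.30) and mor (9.75 ± 0.26) and the Polycomb-group gene Scm (9.18 ± 0.35). All 7 measured genes of the siRNA and miRNA machinery were moderate, with the export factor Ranbp21 at 660.3, 574.0 and 428.9, the siRNA-producing nuclease Dcr-2 at 506.3, 399.9 and 326.5, drosha at 229.1, 181.7 and 170.4 and r2d2 at 207.4, 146.4 and 80.1. Genes of the piRNA pathway, which silences transposons mainly in the gonad, were above background in 15 of 16 cases. These were led by del (835.0, 780.9 and 645.8), squ (690.7, 602.4 and 478.2), krimp (log2 8.99 ± 0.31) and armi (8.48 ± 0.26), and tej was at background. The germline helicase vas stood at log2 5.05 and piwi at 5.38, both far under del. AGO3, at 4.96, passed its own array's background on 0 arrays, vas on 1 and piwi on 2.

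Of 22 listed cyclins and their kinases 18 were measured, and CycA and Cdk1 were not among them. Of these 18, 17 were moderate and none was bright, with CycK at 1135.5, 1010.7 and 811.6, the mitotic cyclin CycB at 1154.9, 930.5 and 692.7, CycH at log2 8.84 ± 0.25 and CycY at 8.78 ± 0.26, and CycJ at background. Only 3 of 117 listed histone genes were measured. The variant histone His2Av was bright at 3204.9, 2627.2 and 2060.7, the centromeric histone cid was moderate at 131.4, 101.0 and 69.8, and the embryonic linker histone BigH1 was at background. Of 11 measured apoptosis genes (16 listed) 7 were moderate and 4 at background, a share above background (63.6%) near the 59.0% over all genes. The moderate ones included the inhibitor Diap2 (765.3, 670.4 and 515.1), the caspases Strica (log2 9.28 ± 0.24) and Dronc (8.09 ± 0.22) and Debcl (9.07 ± 0.35). The death inducer skl and the caspase Damm (0.6, 0.5 and 0.8) were at background.

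Markers of other tissues differed by tissue, and 59.0% of all genes were above background. Above background were 1 of 11 muscle, 1 of 8 fat body and yolk, 3 of 19 testis, 1 of 5 eye, 3 of 9 neuron, 5 of 8 glia, 11 of 13 germline and 7 of 8 epithelial and tracheal markers. The germline count equals that of the plasmatocyte markers, 11 of 13, but no germline marker was bright and their median was 5.28. Of 11 muscle genes 10 were at background, for example Mlc2 at 1.2, 0.8 and 0.6, and paramyosin, Prm, reached 21.8, 33.2 and 27.8. Of 8 fat body and yolk genes 7 were at background. Of 19 testis markers 16 were, including the protamine ProtA (1.3, 1.6 and 0.5), while mia, a testis-specific TAF, was moderate at 169.7, 164.7 and 114.3. Among 9 neuron markers elav was moderate at 112.1, 83.3 and 107.5, as were brp (77.5, 57.7 and 55.3) and the calcium channel cac (85.5, 39.0 and 42.1), whereas Appl (2.0, 1.6 and 2.3) and nSyb were at background. So the neuronal set was not uniform. Among 8 glia markers loco (1334.1, 1012.1 and 721.8), moody (672.9, 558.9 and 454.6), nrv2 (log2 8.09 ± 0.62) and Gs2 (6.61 ± 0.23) were moderate and alrm was at background. Of the epithelial and tracheal markers the junction protein pyd was bright at 1223.2, 1100.0 and 825.4 and cora (877.5, 840.7 and 647.3), Nrx-IV (440.4, 351.8 and 256.2) and kune (265.0, 265.2 and 200.7) were moderate, while the FGF receptor btl was at background. Among the 11 germline markers above background tud (968.2, 920.3 and 712.0), pum (log2 8.34 ± 0.34), gcl (7.08 ± 0.18) and aub (6.34 ± 0.17) led, and the other 2, otu and bgcn, were at background. Others of the 11 lay close to the threshold. AGO3 (log2 4.96) and osk (4.98) passed their own array's background on 0 arrays and vas (5.05) on 1. Of 5 eye genes measured 4 were at background, such as trp (0.9, 1.0 and 1.3), and chp was 5.16 ± 0.27.

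Families restricted to sense organs, cuticle, eggshell, gut or accessory gland were mostly at background. Of 371 such genes 307 were at background, 63 moderate and 1 bright. A share of 5% above the threshold would be met by the foreign controls alone, by construction. Above background were 7.55% of 53 ionotropic receptors, 7.69% of 13 chorion and vitelline membrane genes, 8.93% of 56 gustatory receptors, 9.52% of 21 accessory gland proteins, 15.8% of 57 odorant receptors, 17.0% of 47 odorant-binding proteins, 27.3% of 22 digestive proteases and 28.4% of 102 cuticle proteins. Each share is over measured genes, against 59.0% over all genes. The bright exception was Obp99a, an odorant-binding protein, at 1253.5, 1300.4 and 815.9. Well above the line were also the ionotropic receptor genes Ir7g (367.2, 317.4 and 266.3) and Ir76a (189.1, 174.8 and 123.1) and the odorant receptor gene Or1a (261.2, 172.2 and 130.1). Among the rest, Obp18a (157.2, 124.2 and 113.2), Acp95EF (127.6, 110.5 and 82.8), Cpr67Fa1 (122.1, 89.3 and 67.6) and Gr61a (77.7, 68.7 and 39.6) stood out, Obp18a second to Obp99a and the other 3 the highest of their families. Whether such a probe set reads another transcript was not tested.

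Detoxification families differed in how much of each was seen. Of 34 glutathione S-transferases, which conjugate electrophiles to glutathione, 28 were above background and 8 bright, with GstE9 at 4296.4, 3878.7 and 3003.5, GstD1 at 4520.0, 3458.4 and 2730.7, GstE6 at log2 11.29 ± 0.33 and GstE12 at 10.5 ± 0.36. Of 81 cytochrome P450 genes 37 (45.7%, against 59.0% over all genes) were above background. None was bright, the highest being Cyp9c1 at 1114.0, 966.0 and 822.0. Of 35 UDP-glycosyltransferases 9 were above background, led by Ugt317A1 (907.9, 810.4 and 645.0) and Ugt316A1 (log2 9.13 ± 0.34). Of 33 listed Rab GTPases, switches of vesicle traffic, 22 were measured, and Rab1, Rab5, Rab7 and Rab11 were not among them. Among the 22 measured 18 were moderate, led by Rab10 (989.3, 743.4 and 577.3) and Rab14 (log2 8.87 ± 0.37), while the neuronal Rab3 was at background.

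**Figure D5:**
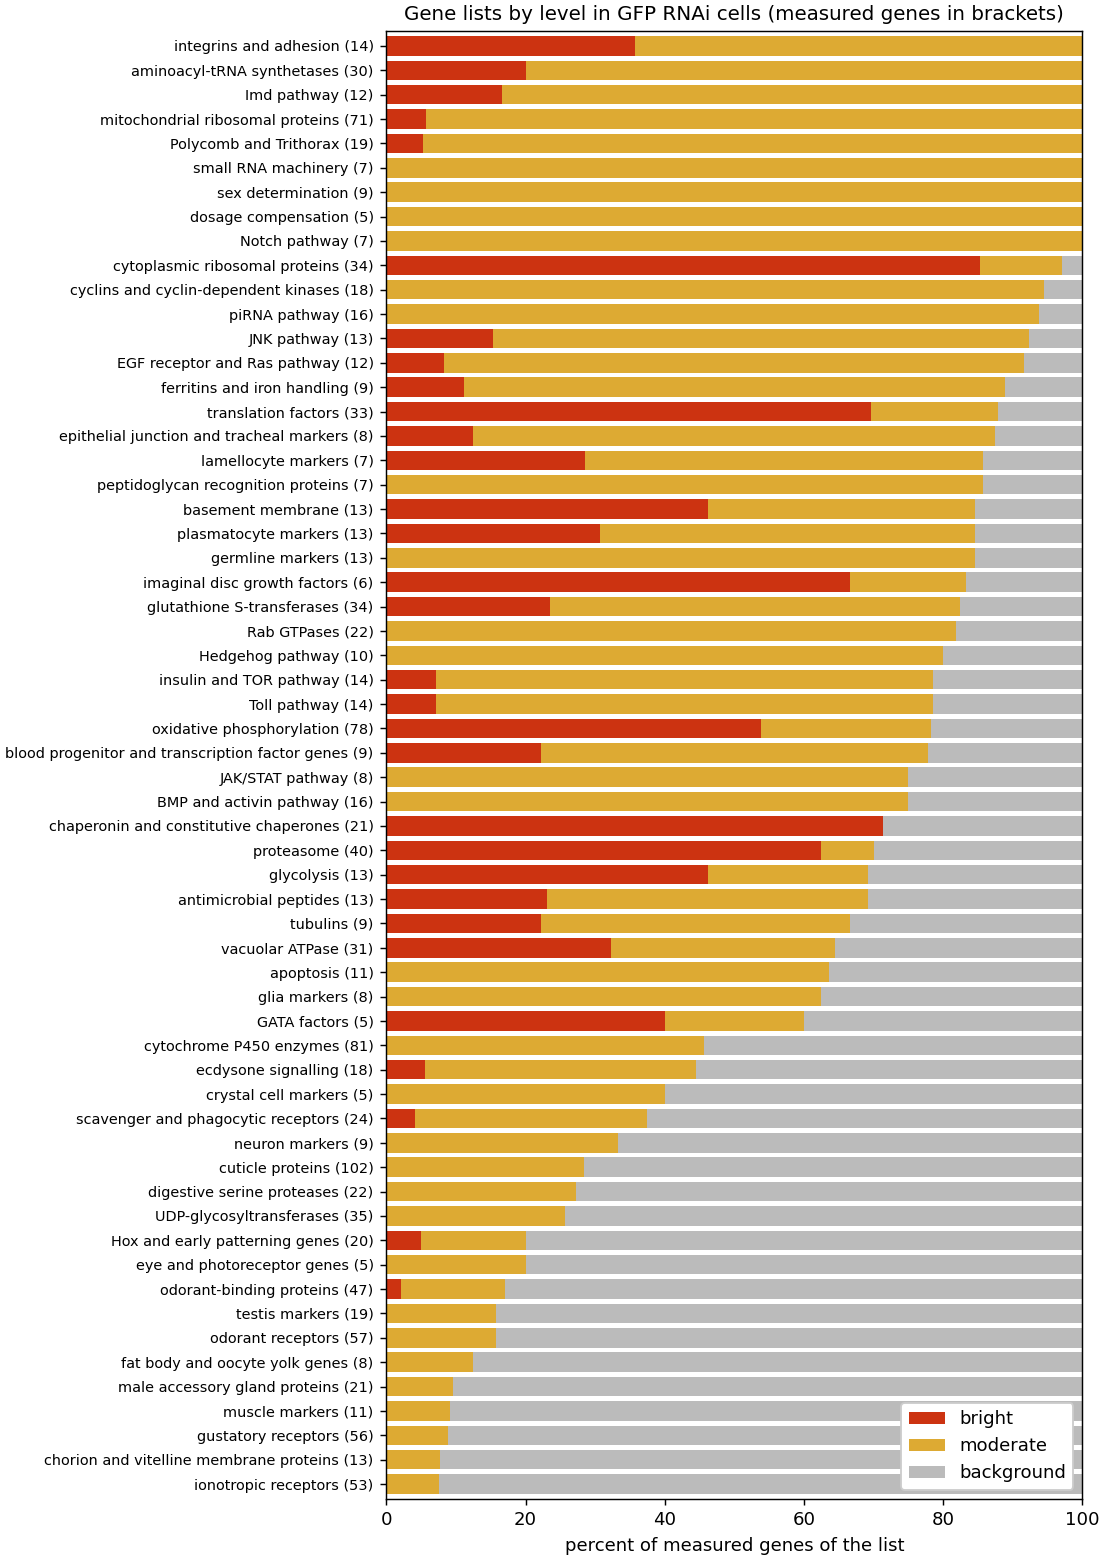
Percent of measured genes (x axis) that were bright, moderate or at background in each gene list with at least 5 measured genes (y axis, number measured in brackets), by mean level over the 3 GFP RNAi arrays. Ribosomal, translation and chaperone lists hold the largest bright shares (85.3%, 69.7% and 71.4%), and ionotropic receptors (92.5%), eggshell proteins (92.3%), gustatory receptors (91.1%) and muscle markers (90.9%) have the largest background shares.

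Genes known only by a number were rarer among bright genes. Such symbols (CG and digits) made up 55.8% of genes at background, 37.3% of moderate genes and 15.7% of bright genes. After CG5953 the brightest were CG1943 (8136.8, 7685.6 and 6613.5), CG14273 (6470.0, 6010.5 and 5049.6) and CG32276 (6055.1, 5028.0 and 5133.6). CG1943 overlaps the gene Ref1 in the RefSeq annotation, and its probe set has the suffix _s_at, and whether its signal holds more than 1 transcript was not tested.

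The 10 genes above background with the widest range after centring were mostly dim. Centring itself raised the spread of genes near background, so their ranges are not set against those of bright genes. After centring, the widest range over the arrays among genes above background was that of lncRNA:CR43785, a long noncoding RNA, with signals of 127.1, 102.3 and 8.7. CG13044 behaved alike, at 138.0, 109.3 and 16.2. Both were high in replicates 1 and 2, washed on station 1, and low in replicate 3. The small heat shock gene l(2)efl was low in replicate 2 alone, at 197.7, 52.7 and 159.0. The other 7 of the 10 widest, Cpr66Cb (5.3, 51.7 and 35.2), CG13062, Dhc93AB, r-cup, CG2962, Fam92 and CG42830, had means from 4.95 to 5.39, near the threshold. Among bright genes, chosen after their values were seen, the widest range was that of Inos, inositol-phosphate synthase, at 3662.7, 3151.5 and 1572.9, lowest in replicate 3.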

How the data were processed

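The deposited values are 1 linear signal intensity per probe set and array. For the software, background correction and scaling behind them, the sources used here name nothing. The chip type and fluidics station were read per the file headers. The 3 GFP RNAi arrays, 1 group, were described with no test. The level was the mean of log2(signal + 16). Of 18894 probe sets, 125 controls were left out. Of the rest, 13646 were paired with 1 gene, 402 with several and 4721 with none, by GEO's platform annotation, and symbols were updated through gene IDs to the RefSeq Release 6 table, where 13543 IDs matched. The probe set with the highest mean stood for a gene. Of 1094 genes with several probe sets, 375 (34.3%) had some at and some above background, and 20 had both bright and background ones. Background was the 95th percentile of the foreign controls and bright a mean of 10.

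The members and the 65 gene lists were chosen with earlier results of these data known. Genes whose names fitted a list's spelling but that are not members, such as Cp190, were removed. The genes named were the 25 brightest, the 4 highest and 2 lowest of each list, all blood, isoform, GATA, dosage and sex genes, the 10 most variable and the threshold neighbours. A few others were named after their values were seen. Promoter motifs, protein lengths and chromosome arms were not analysed here, and no sequence is printed. Alternatives changed the pseudocount, scaling, thresholds, probe set rule and arrays used. The number of arrays limits the precision. The procedure was tested on simulated data and run with Python 3.11.15, numpy 2.4.6, pandas 2.3.3 and scipy 1.17.1.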

Additional observations from a re-analysis of the deposited data

Results flagged for a closer look

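Probe sets that the annotation pairs with no gene entered no level above, yet 1222 of these 4721 (25.9%) were above background in the GFP RNAi arrays and 197 were bright. Among the 100 brightest probe sets 56 had no gene name, and the brightest of all was one of them, with signals of 13518.7, 12884.8 and 11803.4. These signals are given as values, and which genes they belong to was not analysed here. List counts cover only genes with a probe set paired with them alone. Counts of bright members, and the highest members named, therefore hold for measured genes only.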

How the results depend on the processing

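The number of bright genes, 778, became 1697 with bright set at 9, 305 with bright set at 11 and 474 with only probe sets without a suffix, a setting that leaves 10074 genes. That last setting kept 12 of the 25 brightest genes, since probe sets with a suffix were removed from it. Leaving out each replicate in turn gave 685 to 897 bright genes, 6119 to 6399 moderate genes, 4812 to 5076 genes at background and 24 to 25 of the 25 brightest genes. Over the other settings the genes at background ranged from 4480 to 5799. Between 92.3% and 99.7% of the genes present in both settings kept their level, depending on the setting. The list counts of genes above background and of bright genes were checked against a set fold limit. Of 130 such counts, 46 moved past it with only probe sets without a suffix. With bright at 9 it was 25, with bright at 11 it was 19 and with background at the 99th percentile 13. In each other setting 1 to 11 moved. PPO2 and cad left the moderate level in 6 settings each, and DptB was not bright without replicate 1. No paired analysis was possible because only 1 group was described and no test was made. The promoter, protein and chromosome arm description was not run. Dim signals limit the calls near the lower threshold.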
